A study of Homo sapiens with 4 samples.

Results

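Interferon response genes are the genes that a cell switches on when interferon reaches its receptors or when its own sensors meet foreign or misplaced nucleic acid. The 32 genes described here were fixed by symbol: ISG15, IFI6, IFI27, IFI35, IFI44, IFI44L, IFIT1, IFIT2, IFIT3, IFITM1, IFITM2, IFITM3, IFIH1, MX1, OAS1, OAS2, OAS3, OASL, STAT2, IRF1, IRF7, IRF9, BST2, XAF1, HERC5, HERC6, PARP9, PARP14, DTX3L, SAMHD1, TRIM22 and UBE2L6. All 32 were found among the 37468 features counted, and all 32 had at least 1 UMI (a molecule counted once) in each library.

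The cells were MSTO-211H, an established human line from a biphasic pleural mesothelioma, labelled wild type and grown unattached in ultra-low adhesion plates in RPMI with SM1 supplement, EGF, bFGF and heparin and no serum, a culture that the labels call mesothelioma-initiating cells. There was 1 single-cell library per group. Drug_Radiation cells had 10 µM QTP and 4 Gy the next day, Drug cells had 10 µM QTP without irradiation, Radiation cells had vehicle and 4 Gy, and Control cells had vehicle without irradiation. All were taken 48 h after the time of irradiation, and the series title places the work under inhibition of dopamine receptors. The line comes from 1 tumour, and cells of a group were dissociated and pooled before fixing.

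Type I interferons bind IFNAR1 and IFNAR2, whose kinases JAK1 and TYK2 phosphorylate STAT2 among others. STAT2 and IRF9 are subunits of ISGF3, which binds the interferon-stimulated response element (ISRE) in promoters, while the gamma activated site (GAS) is the element known from the response to interferon gamma. IRF3 and IRF7, activated by the sensors RIG-I, MDA5 and cGAS through MAVS and STING, can turn on part of the same genes directly, and such a response in irradiated tumour cells is known from other systems.

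The 4 libraries differed far more in depth than in these genes. Drug_Radiation held 6990 cells with a median of 18024.5 UMIs, Drug 3802 cells with 20405, Radiation 2425 cells with 5299 and Control 3183 cells with 2318. Sums of the 32 genes rested on 340609, 220600, 31949 and 17642 UMIs in the same order. No barcode was shared between libraries. Of 10 mesothelial and mesothelioma markers, 6 reached 5 CPM in each library, and 9 of the 10 leukocyte markers stayed near 0, with a sum of 0.473 CPM in Drug_Radiation, 0.619 in Drug, 0.279 in Radiation and 0.671 in Control. The remaining one, the lysosomal protein CD68, had 39.3 CPM in Drug_Radiation, 39.8 in Drug, 41.4 in Radiation and 16.2 in Control. Levels are UMIs summed over a library's cells, per 1000000 nuclear-encoded UMIs (CPM), and ratios are log2 of CPM plus 1. With 1 library per group there is no replicate check, no test and no p-value, and the 95% intervals cover counting error only. QTP, depth and any difference between library preparations cannot be told apart. The whole culture was 1 cell line, so the share of UMIs from free RNA could not be read from a cell type that lacks these genes. No doublet caller was run.

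Promoters of 26 of the 32 genes were matched in RefSeq (GRCh38.p14), each as 250 bases before to 50 after the start of the gene. IFIT2, IFITM2, OAS2, OASL, IRF7 and TRIM22 are named only. The core of the ISRE, GAAA, any 2 bases and GAAA again, read on both strands, lay in a promoter of 17 of the 26 genes (65.4%), against 4.38% of 27305 genes with promoters of the same length. The core of the GAS, TTCNNNGAA on both strands, lay in a promoter of 9 of the 26 (34.6%), against 9.38% of all genes. The 17 were ISG15, IFI6, IFI27, IFI44, IFI44L, IFIT1, IFIT3, IFITM1, IFITM3, IFIH1, MX1, OAS3, BST2, HERC5, PARP9, PARP14 and DTX3L, and the 9 were IFI27, IFI35, IFITM1, MX1, OAS1, IRF1, IRF9, BST2 and PARP14. Neither core lay in the windows of STAT2, XAF1, HERC6, SAMHD1 and UBE2L6. A match is a description of letters and not a measured site. The stretches below are a selection. ISG15, IFI44 and HERC5 were chosen as genes with the ISRE core that were 2-fold higher in the cells rich in IFIT UMIs described further on. IFIT1 and IFIT3 have the ISRE core too and help define those cells. IFIH1, with the ISRE core, was higher in those cells but under 5 CPM in every library. OAS1 and HERC6, also 2-fold higher in those cells in both libraries with QTP, had no ISRE core and are not shown. IRF1 and IRF9 were chosen as genes with the GAS core and no ISRE core. Each stretch is written 5′ to 3′ along the gene, with the cores in capitals.
ISG15, chr1:1013369-1013414, plus strand: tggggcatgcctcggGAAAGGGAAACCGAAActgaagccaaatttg
IFIT1, chr10:89392492-89392544, plus strand: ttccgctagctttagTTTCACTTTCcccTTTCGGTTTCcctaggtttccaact
IFIT3, chr10:89327826-89327899, plus strand: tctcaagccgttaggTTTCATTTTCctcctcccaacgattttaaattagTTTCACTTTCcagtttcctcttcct
IFI44, chr1:78649756-78649788, plus strand: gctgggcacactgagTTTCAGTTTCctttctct
HERC5, chr4:88456979-88457069, plus strand: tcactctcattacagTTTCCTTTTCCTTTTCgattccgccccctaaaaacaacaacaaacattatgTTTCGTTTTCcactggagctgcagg
IFIH1, chr2:162318685-162318858, minus strand: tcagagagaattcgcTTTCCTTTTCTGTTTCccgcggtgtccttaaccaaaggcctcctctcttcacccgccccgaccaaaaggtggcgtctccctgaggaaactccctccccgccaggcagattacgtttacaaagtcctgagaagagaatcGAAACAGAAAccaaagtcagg
IRF1, chr5:132490874-132490912, minus strand: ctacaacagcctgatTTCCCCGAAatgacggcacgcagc
IRF9, chr14:24161187-24161225, plus strand: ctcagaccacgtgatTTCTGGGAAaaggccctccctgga

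The 32 genes together made up 2405 CPM in Drug_Radiation, 2530 in Drug, 2229 in Radiation and 1972 in Control. IFITM2 and IFITM3, membrane proteins that block virus entry, held 72.4% of these UMIs in Drug_Radiation, 71.5% in Drug, 75.5% in Radiation and 75.2% in Control. Without them the sums were 665, 720, 545 and 490 CPM in the same order. Of the 32 genes, 20 reached 5 CPM in every library, OAS3, HERC6 and DTX3L reached it in some, and 9 stayed below it in all: IFI27, IFI44L, IFIH1, MX1, OAS2, IRF7, BST2, XAF1 and SAMHD1. MX1, a dynamin-like GTPase that traps virus particles and is widely used as a marker of type I interferon, had 196 UMIs in Drug_Radiation, 146 in Drug, 18 in Radiation and 8 in Control (1.38, 1.67, 1.26 and 0.894 CPM). XAF1, a partner of the apoptosis inhibitor XIAP, had 34, 38, 4 and 2 UMIs in the same order. The repertoire was thus uneven, with IFITM2 and IFITM3 far above the rest and several classical interferon markers close to their counting limit of 3 UMIs in Control.

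**Figure D1:**
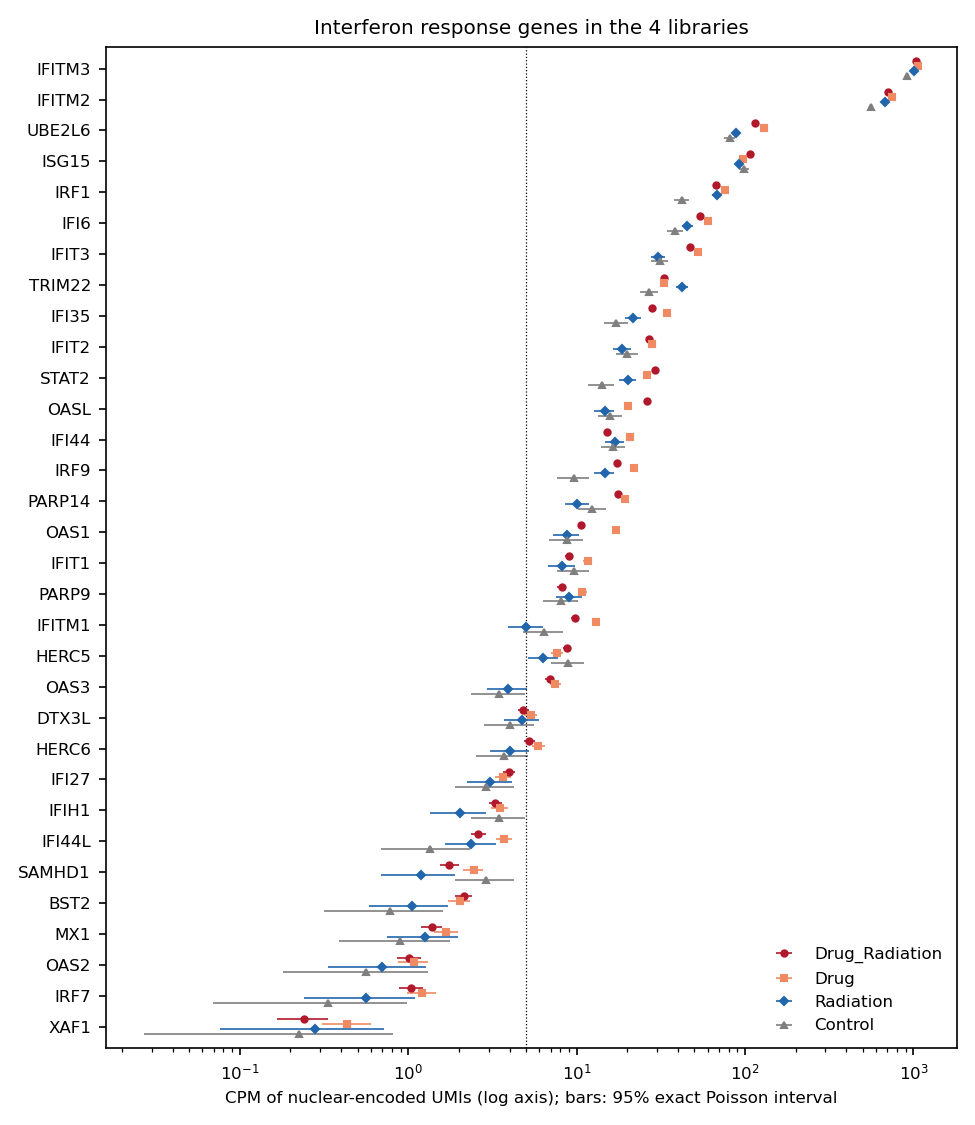
Levels of the 32 interferon response genes in CPM (log axis) in Drug_Radiation, Drug, Radiation and Control, with 95% Poisson intervals as bars and a dotted line at 5 CPM. Genes spread over several orders of magnitude, from XAF1 at 0.24 CPM to IFITM3 at 1038 CPM in Drug_Radiation, while the 4 libraries lie close together for most genes.

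Among the 23 genes that reached 5 CPM somewhere, the highest library exceeded the lowest by a median of 1.61-fold, and by 2-fold or more for 4 genes. The highest level was in Drug_Radiation for 3, in Drug for 18, in Radiation for 1 and in Control for 1, and over all genes of that level the shares were 22.3%, 64.5%, 5.83% and 7.36%. The lowest level was in Control for 14 and in Radiation for 8, where all genes had 57.1% and 30.5%. The order of the libraries for these genes was thus close to that of all genes.

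The QTP comparisons ask how cells given the compound differed from cells given vehicle, without and with radiation. A gene was measured in a comparison when it had at least 5 CPM in a compared library. In Drug against Control 1 of 23 measured genes, IRF9, was 2-fold higher and 0 were 2-fold lower, where 7.3% of 10353 genes were 2-fold higher and 2.17% 2-fold lower. The median log2 ratio was 0.56 for the interferon genes, with a range of -0.20 to 1.11, and 0.47 for all genes. With 1 CPM added, the genes just short of 2-fold were IFI35 at 0.95, OAS3 at 0.93 and IFITM1 at 0.93. In plain CPM OAS3 (7.48 against 3.46) and IFITM1 (13.1 against 6.37) were above 2-fold. With 0.1 CPM added, 3 of the 23 genes were 2-fold higher, beside 9.61% of all genes. TMM scaling, which centres libraries on their typical gene, brought the medians to 0.24 for the interferon genes and 0.08 for all genes, so the interferon median exceeded that of all genes by 0.10 before and 0.15 after this scaling. It turned IFI44, IFIT1, IFITM3, OASL and TRIM22 below 0 and ended the call of IRF9, at 0.74. Over all genes TMM scaling gave 114 genes 2-fold higher and 308 lower, against 756 and 225 before. Among cells of closer depth (6500 to 15000 UMIs, 1023 of Drug and 173 of Control, with medians of 10833 and 7775) 3 of 23 genes were 2-fold higher, IFIT3, IFITM1 and PARP9, beside 11.6% of 10744 genes. In Control they rested there on 35, 6 and 7 UMIs. DTX3L, HERC5, IFI6, OASL, TRIM22 and UBE2L6 changed sign in these cells. There the interferon median was 0.28 and that of all genes 0.29, and IRF9 had 0.50.

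With radiation, in Drug_Radiation against Radiation, 0 of 22 measured genes were 2-fold higher or lower, where 1.38% of 10158 genes were 2-fold higher and 1.57% lower. The median was 0.28 for the interferon genes and 0.19 for all genes. The largest ratio was that of IFITM1, 0.84, and the smallest that of TRIM22, -0.36. OASL (0.79), PARP14 (0.75), OAS3 (0.69) and IFIT3 (0.61) followed IFITM1, and all 5 stayed above 0 under TMM and median-of-ratios scaling and at closer depth. These ratios use no library of the comparison without radiation.

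The radiation comparisons ask how cells 48 h after 4 Gy differed from unirradiated ones. With QTP, in Drug_Radiation against Drug, 0 of 23 genes were 2-fold higher or lower, where 0.194% of 10305 genes were 2-fold higher and 0.146% lower. The median was -0.15 for the interferon genes and -0.14 for all genes. Ratios were above 0 for 4 of the 23 genes, ISG15, OASL, STAT2 and HERC5, beside 26.6% of all genes. Counting intervals lay above 0 for these 4 and below 0 for 15 genes, a count that was not made for all genes. TMM scaling brought both medians to 0.02 and 0.03 and changed the sign of 10 of the 22 genes it kept. OASL (0.34, or 0.51 under TMM scaling) and OAS1 (-0.64, or -0.47) lay farthest apart. Without QTP, in Radiation against Control, 0 of 20 genes were 2-fold higher or lower, where 1.7% of 9764 genes were 2-fold higher and 0.819% lower. The median was 0.08 for the interferon genes and 0.12 for all genes. IRF1 (0.68), TRIM22 (0.64), IRF9 (0.56) and STAT2 (0.49) had the largest ratios and HERC5 the smallest (-0.44). In Drug_Radiation against Control 0 of 22 were 2-fold higher or lower, beside 4.99% and 2.22% of 10227 genes, with STAT2 closest at 0.99. No more than 1 interferon gene passed 2-fold in any of the 5 comparisons.

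**Figure D2:**
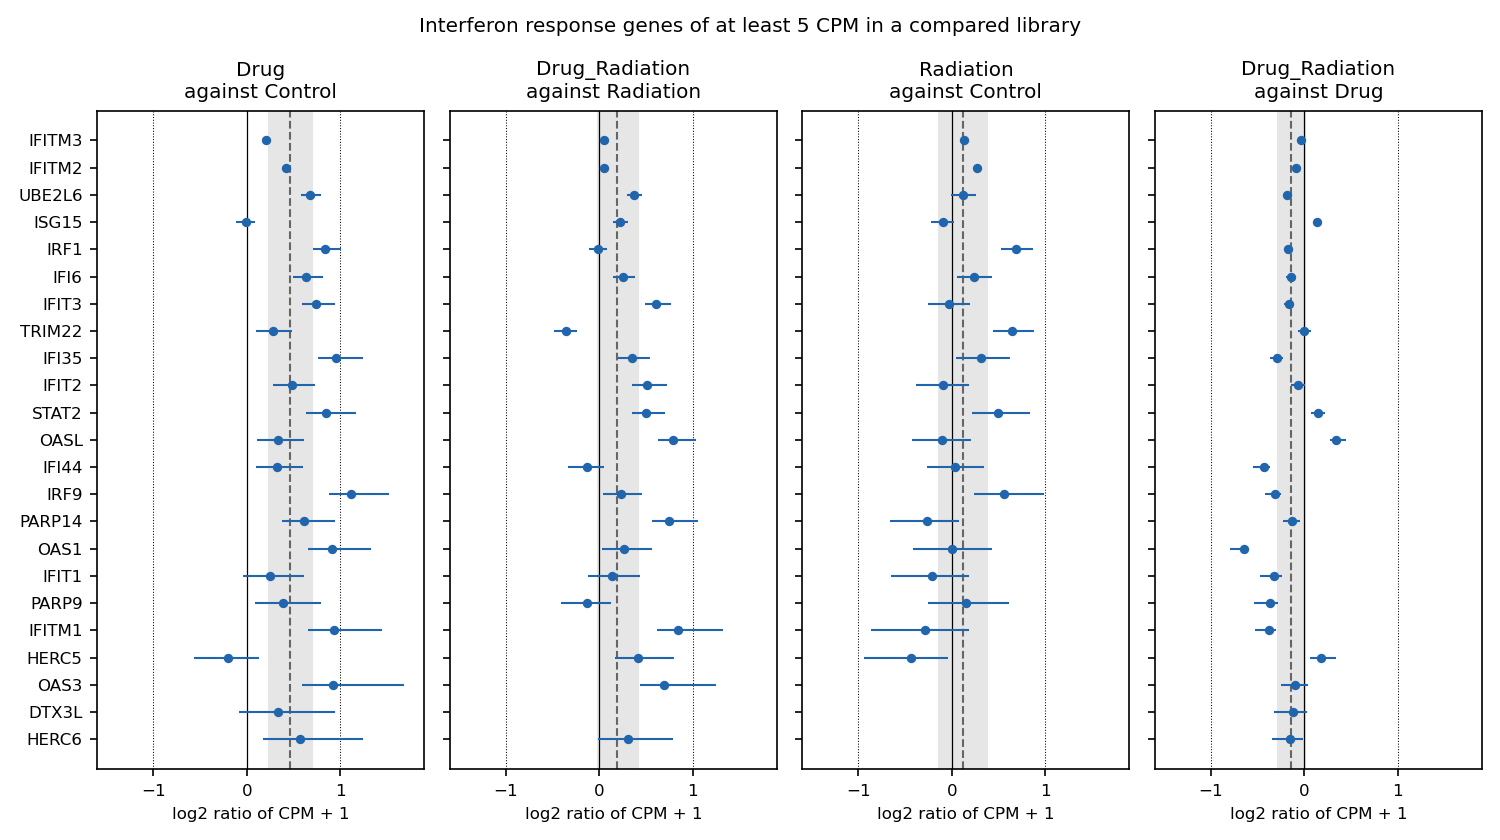
Log2 ratios of CPM plus 1 for the 23 interferon response genes that reached 5 CPM in some library, in Drug against Control, Drug_Radiation against Radiation, Radiation against Control and Drug_Radiation against Drug. Bars are 95% counting intervals without the added 1, the dashed line is the median of all genes (0.47, 0.19, 0.12 and -0.14), the grey band holds the middle 50% of all genes and dotted lines mark 2-fold. Most genes lie inside or near the band of all genes in each panel, and only IRF9 passes 2-fold, in Drug against Control.

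The ligands were nearly absent. None of the 16 interferon genes listed reached 5 CPM, and 9 of the 16, among them every interferon alpha gene counted, had 0 UMIs in all libraries. IFNB1, interferon beta, had 7 UMIs in Drug_Radiation, 9 in Drug, 1 in Radiation and 1 in Control, and IFNL1, an interferon lambda, had 3, 3, 0 and 0. IFNE, an interferon made by epithelia without infection, had 73, 42, 4 and 2 UMIs, or 0.516, 0.482, 0.279 and 0.224 CPM. MTAP, a neighbour of the type I interferon genes on the short arm of their chromosome, was counted at 26.4 CPM in Drug_Radiation, 30.7 in Drug, 23.6 in Radiation and 21.6 in Control, and the further neighbours KLHL9 (26.6, 24.3, 22.8 and 15.1 CPM) and FOCAD (18.0, 18.0, 13.7 and 13.9 CPM) were counted too. CDKN2A, the tumour suppressor beside MTAP, had 6.88, 6.61, 0.488 and 0.894 CPM, on 7 UMIs in Radiation and 8 in Control. It was 2-fold higher in Drug against Control and in Drug_Radiation against Radiation, where 7.3% and 1.38% of all genes were.

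The receptors and kinases were present at moderate levels. IFNAR1 had 18.0 CPM in Drug_Radiation, 23.0 in Drug, 17.9 in Radiation and 14.1 in Control, and JAK1 had 56.0, 52.8, 34.7 and 35.3 CPM. Of 9 receptor and kinase genes 8 were measured, and 0 were 2-fold higher or lower in any comparison. IFNGR1, a chain of the interferon gamma receptor, had 39.6, 53.2, 48.3 and 39.2 CPM, and IL10RB, shared by the lambda receptor, had 26.7, 35.0, 25.9 and 21.9 CPM.

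The transcription factors among the 32 genes were lowest in Control. This was the usual order: of all genes that reached 5 CPM somewhere, 57.1% were lowest in Control and 64.5% were highest in Drug. IRF9, the DNA-binding subunit of ISGF3 (chr14:24161053-24166565), had 17.4 CPM in Drug_Radiation, 21.9 in Drug, 14.7 in Radiation and 9.61 in Control, from 2463, 1910, 210 and 86 UMIs. Its log2 ratio was 1.11 (0.88 to 1.52) in Drug against Control, 0.23 (0.04 to 0.46) in Drug_Radiation against Radiation, 0.56 (0.24 to 0.99) in Radiation against Control and -0.32 (-0.42 to -0.25) in Drug_Radiation against Drug. Control was the lowest of the 4 libraries and Drug the highest.
STAT2, its partner in ISGF3 (chr12:56341597-56360155), had 29, 26.2, 20.2 and 14.1 CPM in Drug_Radiation, Drug, Radiation and Control, with counting intervals of 28.1 to 29.9, 25.1 to 27.3, 17.9 to 22.6 and 11.7 to 16.8 that did not overlap. The ratio was 0.85 in Drug against Control, 0.50 in Drug_Radiation against Radiation and 0.49 in Radiation against Control. It was 0.14 in Drug_Radiation against Drug, and -0.17 there among cells of closer depth.
IRF1, a factor induced by interferon (chr5:132481609-132490798), had 67.2 CPM in Drug_Radiation, 76.0 in Drug, 68.0 in Radiation and 42.0 in Control. Control was lowest and Drug highest, and the counting intervals of Drug_Radiation (65.9 to 68.6) and Radiation (63.8 to 72.4) overlapped. IRF1 and C5orf56 overlap on opposite strands. IRF7, which amplifies interferon production, rested on 147, 105, 8 and 3 UMIs, or 1.04, 1.20, 0.558 and 0.335 CPM.
Outside the 32 genes, of the 9 other STAT and IRF genes listed, 6 were measured in Drug against Control. IRF3, the factor that sensors activate, was the 1 that was 2-fold higher there, where 7.3% of all genes were (59.1, 68.0, 45.1 and 29.7 CPM in Drug_Radiation, Drug, Radiation and Control, log2 ratio 1.17). STAT3 had 59.6, 65.0, 53.8 and 32.9 CPM, and IRF2BP2, a corepressor, had 47.8, 44.6, 33.6 and 38.1 CPM.

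The sensors differed widely in level. IFIH1 encodes MDA5, which recognises long double-stranded RNA, and had 466 UMIs in Drug_Radiation, 305 in Drug, 29 in Radiation and 31 in Control, or 3.29, 3.5, 2.02 and 3.46 CPM, under the 5 CPM limit in all. The intervals of Radiation (1.36 to 2.91) and Control (2.35 to 4.92) overlapped. In the list of 14 other sensors and adaptors, 11 were measured in Drug against Control, and MAVS (24.3, 24.1, 20.7 and 11.1 CPM in Drug_Radiation, Drug, Radiation and Control) and the kinase IKBKE (4.17, 5.07, 2.44 and 1.79 CPM) were 2-fold higher, beside 7.3% of all genes. STING1, the adaptor of the DNA sensor cGAS, had 69.4, 62.4, 52.2 and 32.4 CPM. Like MAVS it was 2-fold higher in Drug_Radiation against Control, where 4.99% of all genes were. IFI16, a nuclear DNA sensor, had 113, 158, 143 and 114 CPM, and TRIM25, the ligase that acts on RIG-I, had 46.8, 48.9, 32.7 and 27.0 CPM.

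ISG15 and its conjugation enzymes showed how differently single genes behaved. ISG15, a ubiquitin-like modifier (chr1:1001138-1014540), had 107.7 CPM in Drug_Radiation, 97.7 in Drug, 92.0 in Radiation and 98.6 in Control, from 15252, 8519, 1319 and 882 UMIs. Its ratio was -0.01 (-0.11 to 0.09) in Drug against Control and 0.22 (0.15 to 0.31) in Drug_Radiation against Radiation. TMM scaling gave -0.41 and 0.09, and cells of closer depth gave -0.61 and -0.33, so the sign of the second was not kept.
UBE2L6, the enzyme that carries ISG15 to its targets (chr11:57551656-57568284), had 114 CPM in Drug_Radiation, 130 in Drug, 88.0 in Radiation and 80.9 in Control. The ratio was 0.68 (0.58 to 0.79) in Drug against Control, but -0.20 among cells of closer depth. HERC5, the ligase that attaches ISG15 in human cells, had 8.80, 7.65, 6.35 and 8.94 CPM. Its log2 ratio was -0.44 (-0.94 to -0.04) in Radiation against Control and 0.41 (0.16 to 0.79) in Drug_Radiation against Radiation. HERC6, the main ISG15 ligase of mice, had 5.24, 5.93, 4.05 and 3.69 CPM. ISG15 itself thus did not follow its enzyme UBE2L6 across libraries.

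The IFIT genes, whose products bind viral RNA, lie together on chromosome 10. IFIT3 (chr10:89327894-89340971) had 47.1 CPM in Drug_Radiation (46.0 to 48.2), 52.9 in Drug (51.4 to 54.5), 30.5 in Radiation (27.7 to 33.5) and 31.2 in Control (27.6 to 35.1). Both libraries with QTP were above both without it. The log2 ratio was 0.74 (0.59 to 0.94) in Drug against Control and 0.61 (0.49 to 0.77) in Drug_Radiation against Radiation, and 1.11 and 0.87 among cells of closer depth. In Radiation against Control it was -0.03.
IFIT2 had 26.9, 28.1, 18.6 and 19.9 CPM in the same order of libraries, with log2 ratios of 0.48 in Drug against Control and 0.51 in Drug_Radiation against Radiation. At closer depth these were 0.06 and 0.16. IFIT1, which binds RNA without a methylated cap, had 9.06, 11.6, 8.16 and 9.61 CPM, and neither QTP comparison had an interval clear of 0. LIPA overlaps all 3 genes on the opposite strand. Whether reads were counted by strand is not given in the sources used here.

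Among the IFITM genes, IFITM3 (chr11:319669-327537) had 1038 CPM in Drug_Radiation, 1062 in Drug, 1006 in Radiation and 921 in Control, and IFITM2 had 703, 748, 678 and 561 CPM. IFITM1, the family member of the cell surface, had 9.77, 13.1, 5.02 and 6.37 CPM from 1384, 1138, 72 and 57 UMIs. Its ratios of 0.93 (0.65 to 1.44) in Drug against Control and 0.84 (0.62 to 1.32) in Drug_Radiation against Radiation were the largest in the family. These genes resemble each other: 50.8% of the 31-base words in the last 600 bases of IFITM1 transcripts also occur in IFITM2, and 20.7% in IFITM3. IFITM1 and IFITM2 also overlap on the same strand, so the split of reads between them is uncertain.

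The OAS genes encode sensors of double-stranded RNA that make oligoadenylates to activate RNase L. OAS1 had 10.7 CPM in Drug_Radiation, 17.2 in Drug, 8.72 in Radiation and 8.72 in Control, and Drug was the highest by more than the counting error. Its ratio was 0.91 (0.65 to 1.33) in Drug against Control, 0.26 (0.03 to 0.56) in Drug_Radiation against Radiation and -0.64 (-0.80 to -0.59) in Drug_Radiation against Drug. At closer depth these were 0.36, -0.19 and -0.42. OAS3 had 6.93, 7.48, 3.91 and 3.46 CPM, with both libraries with QTP above both without. At closer depth OAS3 had 5.95, 6.37, 5.43 and 5.05 CPM, on 7 UMIs in Control. Its log2 ratios there were 0.28 in Drug against Control and 0.11 in Drug_Radiation against Radiation, against 0.93 and 0.69 over all cells. OAS2 had 144, 94, 10 and 5 UMIs.
OASL (chr12:121019111-121039242), a relative without the enzymatic activity that boosts RIG-I signalling, had 26.0, 20.3, 14.7 and 15.9 CPM in Drug_Radiation, Drug, Radiation and Control. It was 1 of the 3 genes highest in Drug_Radiation, with log2 ratios of 0.79 (0.63 to 1.04) against Radiation and 0.34 (0.28 to 0.44) against Drug, which stayed above 0 under each scaling and at closer depth.

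PARP9 and DTX3L, a pair of partner proteins that act on histones, lie head to head and overlap on opposite strands. PARP9 had 8.16 CPM in Drug_Radiation, 10.8 in Drug, 9.07 in Radiation and 8.05 in Control, and DTX3L had 4.82, 5.34, 4.74 and 4.02 CPM. PARP14, an ADP-ribosyltransferase encoded next to them, had 17.7, 19.5, 10.1 and 12.4 CPM, with ratios of 0.61 (0.37 to 0.94) in Drug against Control and 0.75 (0.56 to 1.06) in Drug_Radiation against Radiation. PARP9 and PARP14 differed in the QTP comparison with radiation, where PARP9 had -0.14.

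IFI6, IFI35 and IFI44 differed by less than 2-fold between libraries. IFI6, a small membrane protein that protects from death signals, had 54.4 CPM in Drug_Radiation, 60.3 in Drug, 45.4 in Radiation and 38.4 in Control. At closer depth it had 43.0, 41.8, 51.0 and 54.8 CPM in the same order, so its log2 ratio in Drug against Control was 0.64 over all cells and -0.38 there. IFI35, a partner of NMI, had 27.9, 34.3, 21.6 and 17.2 CPM, with a ratio of 0.95 (0.76 to 1.24) in Drug against Control that was 0.22 at closer depth. IFI44 had 15.2, 20.9, 16.8 and 16.4 CPM. IFI27, a small protein of the same family as IFI6, had 3.98, 3.65, 3.07 and 2.91 CPM, and IFI44L, the neighbour of IFI44, had 2.61, 3.70, 2.37 and 1.34 CPM. Intervals of IFI27 overlapped between all libraries.
TRIM22, an antiviral ligase described as a target of p53 (chr11:5689689-5737089), was the 1 gene highest in Radiation, with 33.0 CPM in Drug_Radiation, 33.0 in Drug, 42.5 in Radiation and 26.9 in Control. The ratio was 0.64 (0.44 to 0.88) in Radiation against Control and 0.00 (-0.07 to 0.07) in Drug_Radiation against Drug. At closer depth they were 0.14 and 0.19. TRIM22 overlaps TRIM5 on the opposite strand and OR56B1 on the same strand.
BST2, or tetherin, which holds virus at the membrane, had 303, 176, 15 and 7 UMIs (2.14, 2.02, 1.05 and 0.782 CPM). SAMHD1, which degrades the building blocks of DNA, had 249, 213, 17 and 26 UMIs (1.76, 2.44, 1.19 and 2.91 CPM). BST2 had its lowest levels in the libraries without QTP, and the SAMHD1 intervals of Drug (2.13 to 2.79) and Control (1.9 to 4.26) overlapped.

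The other lists of the pathway are read against the 7.3% of all genes that were 2-fold higher in Drug against Control. Of 38 other interferon-stimulated genes, 32 were measured in that comparison and 2 were higher, LGALS3BP, a secreted glycoprotein, and TRIM21, a cytosolic antibody receptor, a share near that of all genes. LGALS3BP had 788 CPM in Drug_Radiation, 777 in Drug, 780 in Radiation and 365 in Control, and it was the 1 of 29 measured that was 2-fold higher in Radiation against Control, beside 1.7% of all genes. TRIM21 had 13.3, 14.7, 8.93 and 5.70 CPM. CMTR1, a cap methyltransferase, was 2-fold higher in Drug_Radiation against Control only, where 4.99% of all genes were (19.4, 14.7, 15.4 and 7.38 CPM). SP100, a nuclear body protein, had 68.2, 91.5, 67.3 and 60.9 CPM.
Of 21 genes associated with interferon gamma, 12 were measured. ICAM1, an adhesion molecule (26.3, 27.4, 18.2 and 8.94 CPM), and WARS1, a tRNA synthetase (86.0, 97.8, 59.0 and 40.1 CPM), were 2-fold higher in Drug against Control and in Drug_Radiation against Control, beside 7.3% and 4.99% of all genes. The immunoproteasome subunits PSMB8 (175, 216, 153 and 145 CPM), PSMB9 (113, 129, 113 and 106 CPM) and PSMB10 (219, 258, 201 and 202 CPM) were not. Of 13 negative regulators, 11 were measured in Radiation against Control. SOCS1, which blocks JAK kinases, was the 1 that was 2-fold lower there, beside 0.819% of all genes. It had 4.88 CPM in Radiation and 11 in Control, with 10.6 CPM in Drug_Radiation and 7.42 in Drug. The phosphatase PTPN2 (59.5, 79.8, 61.5 and 60.2 CPM in Drug_Radiation, Drug, Radiation and Control), the RNase H2 subunit RNASEH2C (49.7, 59.0, 46.6 and 45.0 CPM) and the exonuclease ISG20 (54.4, 62.3, 52.1 and 51.5 CPM) had the highest levels on that list. In Drug_Radiation against Drug 0 genes of any list were 2-fold higher or lower.

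Within each library the interferon genes were unevenly spread over cells. To compare cells at 1 depth, cells with at least 6000 UMIs were thinned to 6000, a depth chosen after the data had been seen, which kept 6990 of 6990 cells of Drug_Radiation, 3802 of 3802 of Drug, 974 of 2425 of Radiation and 225 of 3183 of Control. IFITM3 had a UMI in 99.4% of cells in Drug_Radiation, 99.2% in Drug, 99.5% in Radiation and 99.1% in Control. ISG15 had one in 30.6%, 28.6%, 29.1% and 32.9%, IFIT3 in 18.1%, 20.6%, 10.3% and 11.1%, and OASL in 7.48%, 5.39%, 5.65% and 4.89%. Before thinning, ISG15 had one in 59.5%, 59.8%, 25.4% and 15.2%, which follows the depth of the libraries.

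The spread between cells is given as variance over mean, which is near 1 when only counting error acts. Its median over genes of 5 CPM was 1.04 in Drug_Radiation and 1.05 in Drug, and 1.89% and 2.11% of genes exceeded 2. Of the interferon genes at 5 CPM, 4 of 21 exceeded 2 in Drug_Radiation and 3 of 22 in Drug. ISG15 had 3.69 in Drug_Radiation and 5.56 in Drug, OASL 2.97 and 3.12, IFIT3 2.40 and 2.06, IFIT2 2.45 and 1.97, and IFIT1 1.62 and 1.9. ISG15 ranked 47 of 9902 genes in Drug_Radiation and 25 of 10065 in Drug, and OASL ranked 71 and 82.
The 1% of cells with most OASL held 37.3% of its UMIs in Drug_Radiation and 46.3% in Drug. For IFIT1 they held 41.6% and 41.1%, for HERC5 32.2% and 38.7%, and for ISG15 18.8% and 22.8%. UBE2L6, with a level like that of ISG15, was spread evenly, with 1.06 in both libraries and 5.93% and 5.73% of UMIs in those cells. STAT2 (1.07 and 1.17), IRF9 (1.05 and 1.07) and TRIM22 (1.05 and 1.06) were near the median of all genes too. IRF9, a low gene near the median spread, still had 16.8% and 15.9% of its UMIs in the top 1% of cells, so that share is read beside a gene's level. At like level, OASL stood apart from IRF9 and ISG15 from UBE2L6 in spread.

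**Figure D3:**
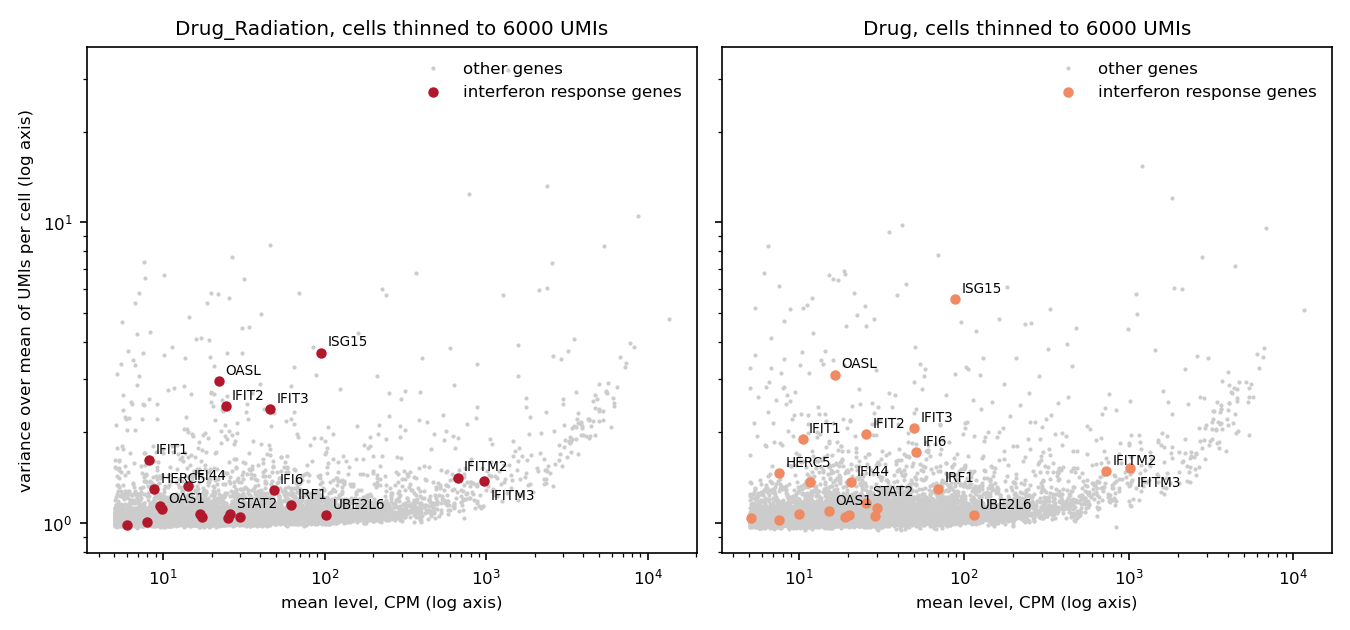
Variance over mean of UMIs per cell against level (CPM), both on log axes, for genes of at least 5 CPM in Drug_Radiation (left) and Drug (right) after thinning to 6000 UMIs, with interferon response genes coloured and other genes in grey. ISG15, OASL, IFIT2 and IFIT3 stand above the bulk of genes at like level, while UBE2L6, IRF9 and TRIM22 lie within it.

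IFIT3 was found more often in cells with another IFIT gene than in cells without it, though most cells with one had no IFIT3 UMI in Drug_Radiation. In that library IFIT3 had a UMI in 46.1% of cells with IFIT1 and in 17.0% of cells without it, and in Drug in 55.8% and 18.8%. For cells with and without IFIT2 the shares were 36.3% and 16.1% in Drug_Radiation and 37.6% and 18.4% in Drug. For OASL the shares were 47.6% and 15.7% in Drug_Radiation and 53.2% and 18.7% in Drug. For STAT2 they were 21.5% and 17.6%, and 26.3% and 19.7%. For IFITM2 they were 18.2% and 14.7% in Drug_Radiation and 20.5% and 21.2% in Drug. IFIT3 thus went with IFIT1 and OASL more often than with STAT2 or IFITM2.

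Cells with at least 3 UMIs of IFIT1, IFIT2 and IFIT3 together were therefore compared with the rest of their library. At 6000 UMIs these were 226 of 6990 cells in Drug_Radiation (3.23%, 2.83 to 3.67, exact Clopper-Pearson), 143 of 3802 in Drug (3.76%, 3.18 to 4.42), 23 of 974 in Radiation (2.36%, 1.5 to 3.52) and 3 of 225 in Control (1.33%, 0.276 to 3.85). They held 41.3%, 40.6%, 39.3% and 51.4% of all IFIT UMIs. At this depth the intervals of the 4 libraries overlapped. Among cells of 6500 to 15000 UMIs without thinning the shares were 7.30% (6.32 to 8.39) in Drug_Radiation, 8.80% (7.13 to 10.7) in Drug, 3.90% (2.64 to 5.52) in Radiation and 1.16% (0.14 to 4.11) in Control. There the intervals of both libraries with QTP lay above those of both without it, at median depths of 11462, 10833, 8566 and 7775 UMIs, whose part in this was not tested. At 1000 UMIs, which kept every cell, the shares were 0.30%, 0.184%, 0.206% and 0.157%, from 21, 7, 5 and 5 cells. Without thinning they were 15.1%, 20.8%, 2.60% and 0.943%, which follows the median depth of the libraries.
In the libraries with QTP these cells are a range and not a type: 68 in Drug_Radiation and 49 in Drug had exactly 3 such UMIs, and 318 and 190 had 2. Cells with 10 or more made up 0.458% and 0.473%, and the highest cell had 29 UMIs in Drug_Radiation, 23 in Drug, 12 in Radiation and 27 in Control. The median depth of cells inside the range was 18373.5 UMIs in Drug_Radiation and 20187 in Drug, against 17985 and 20414 outside it, and the median mitochondrial share was 5.10% and 4.05% inside and 5.18% and 4.01% outside. Mitochondrial share thus hardly moved with the range. The like depth follows in part from the design, since cells were picked on counts thinned to 1 depth. With the same cut on cells not thinned, the median depth inside was 26137 UMIs in Drug_Radiation and 27730 in Drug. Outside it was 16979.5 and 19086.

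**Figure D4:**
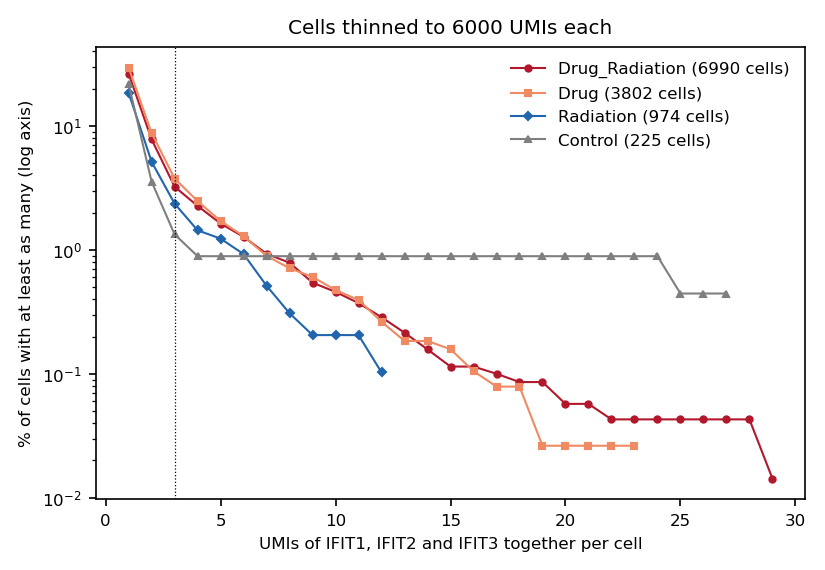
Percent of cells (log axis) with at least the number of IFIT1, IFIT2 and IFIT3 UMIs on the horizontal axis, in Drug_Radiation, Drug, Radiation and Control after thinning to 6000 UMIs, with a dotted line at 3 UMIs. At 3 UMIs the 4 lines lie between 1.33% and 3.76%. The lines of Drug_Radiation, Drug and Radiation fall there without a gap, while Control had 1 cell at 3 UMIs and its next cells at 24 and 27.

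In these cells other interferon response genes were higher too. Of the members other than the IFIT genes with 5 CPM over all cells of at least 6000 UMIs, 6 of 19 were 2-fold higher in Drug_Radiation and 9 of 20 in Drug, where 0.5% of 9994 genes and 0.678% of 10171 were, and 0 were 2-fold lower. The 6 in Drug_Radiation were ISG15, IFI44, OAS1, OASL, HERC5 and HERC6, and Drug had these and IFI6, IFITM1 and PARP14. Their median log2 ratio over the 19 and 20 genes was 0.65 in Drug_Radiation and 0.94 in Drug, against 0.06 and 0.07 over all genes. In Radiation 6 of 17 were 2-fold higher and 1 lower, where 5.3% of 9408 genes were higher, and Control had 3 such cells. Without the 5 cells of most IFIT UMIs in each library the counts were 6 of 19, 8 of 20 and 5 of 17.
OASL had 337 CPM inside and 15.7 outside in Drug_Radiation (log2 ratio 4.34), 298 and 9.34 in Drug (4.85), and 186 and 9.72 in Radiation (4.13). ISG15 had 480 and 95.3 CPM in Drug_Radiation (2.32), 504 and 81.6 in Drug (2.61), and 626 and 87.9 in Radiation (2.82). OASL was thus the gene most set apart, with a median of 1 UMI per cell inside and 0 outside at 6000 UMIs.
HERC5 had 54.6 and 7.27 CPM in Drug_Radiation and 50.3 and 5.96 in Drug. IFI44 had 85.6 and 12.9 CPM in Drug_Radiation and 103 and 17.6 in Drug. IFIH1 had 23.2 and 2.63 CPM in Drug_Radiation and 21.1 and 2.80 in Drug. These 3 genes were more than 5-fold higher inside in both, and IFIH1 was under 5 CPM over all cells. OAS2, lower still over all cells, had 8.30 and 0.774 CPM in Drug_Radiation and 11.4 and 0.668 in Drug, from 38 UMIs inside in each. OAS1, whose promoter held the GAS core and no ISRE core, had 37.8 and 9.75 CPM in Drug_Radiation and 57.5 and 15.6 in Drug.
The ISGF3 genes moved less. STAT2 had 49.4 and 28.3 CPM in Drug_Radiation (0.78) and 50.3 and 25.2 in Drug (0.97), and IRF9 had 24.2 and 17.2 CPM in Drug_Radiation (0.47) and 31.9 and 21.5 in Drug (0.55). IRF1 had a ratio of 0.66 in both. UBE2L6 (0.33 and 0.31), IFITM3 (0.19 and 0.20) and IFITM2 (0.09 and 0.01) were nearly level. MX1, which like IFITM3 has the ISRE core, had 4 UMIs inside in Drug_Radiation and 10 in Drug, with counting intervals of -2.57 to 0.70 and -0.20 to 1.82 on the log2 scale.

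IFI27, IFITM1 and IFI44L had larger ratios of inside over outside in Drug than in Drug_Radiation. IFI27 had 19.6 CPM inside and 3.02 outside in Drug (2.36, 2.28 to 3.10), but 5.90 and 3.91 in Drug_Radiation (0.49, -0.02 to 1.15). IFITM1 had 42.8 and 11.9 CPM in Drug (1.77, 1.59 to 2.10), but 11.6 and 9.71 in Drug_Radiation (0.23, -0.17 to 0.65). IFI44L had 12.1 and 3.37 CPM in Drug (1.58, 1.32 to 2.32), but 2.84 and 2.61 in Drug_Radiation (0.09, -0.80 to 0.92). The intervals of the 2 libraries did not overlap for these 3 genes, which were picked after their values were seen, and of which IFI27 and IFI44L were under 5 CPM over all cells. The intervals count UMIs of 1 cell as independent, and the difference between the libraries was not tested. Without the 5 cells of most IFIT UMIs the Drug ratios were 2.29, 1.74 and 1.54.

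**Figure D5:**
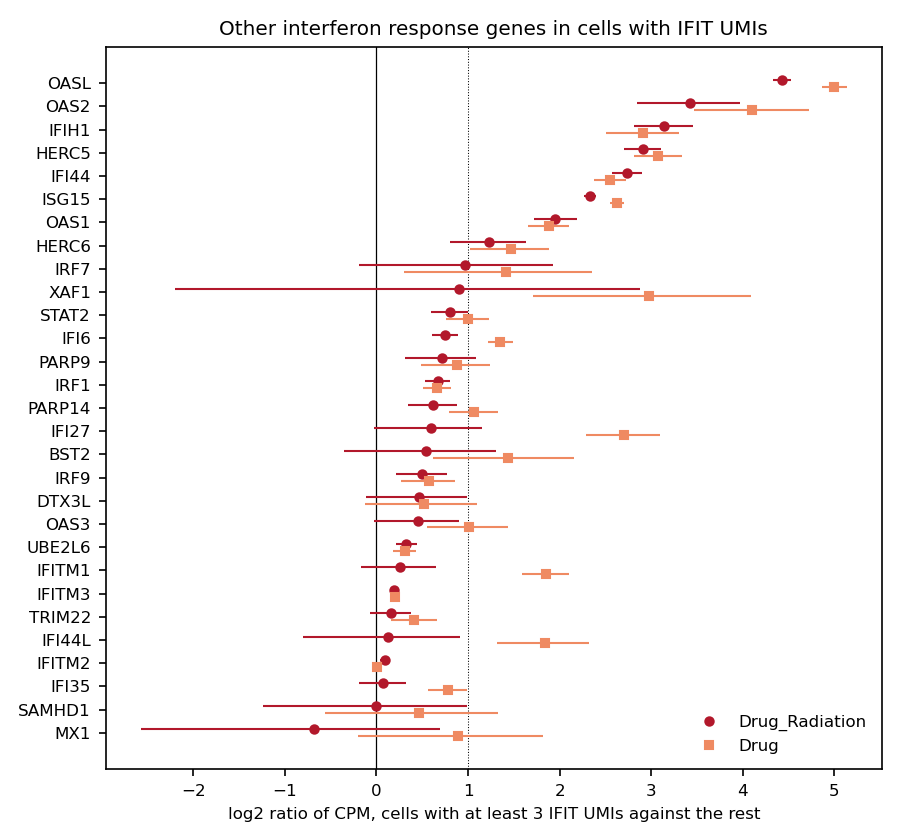
Log2 ratio of CPM, without the added 1, in cells with at least 3 IFIT UMIs over the other cells, for the 29 other interferon response genes in Drug_Radiation and Drug, with 95% counting intervals. OASL, HERC5, IFIH1, OAS2, IFI44 and ISG15 are far above 0 in both libraries, and IFI27, IFITM1 and IFI44L are so in Drug but not in Drug_Radiation.

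Single cells rich in IFIT UMIs differed in which other members they held. The Drug cell with most IFIT UMIs had 62666 UMIs in all, with 70 of IFIT1, 67 of IFIT2 and 72 of IFIT3, and it also held 92 of ISG15, 82 of OASL, 29 of OAS1, 17 of IFIH1 and 12 of OAS2, but 0 of MX1 and 0 of IFNB1. The third Drug cell had 104 IFIT UMIs of 38192, with 10 of OASL and 5 of ISG15, but 0 of HERC5, IFIH1, OAS1 and OAS2. The Drug_Radiation cell with most had 103 IFIT UMIs of 52542, with 28 of ISG15 and 25 of OASL. The Radiation cell with most had 31 IFIT UMIs of 4958, with 11 of OASL and 4 of ISG15. In Control, cells of 6461, 7605 and 5256 UMIs held 31, 30 and 14 IFIT UMIs, with 7, 12 and 1 of OASL, and the next cell had 9. Cells rich in IFIT UMIs were thus present in Control as well. IFNB1 and IFNL1 had 0 UMIs in each of the 5 cells with most IFIT UMIs of every library.

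Ranking the 9857 genes with 5 CPM over all cells of at least 6000 UMIs in both libraries with QTP by the smaller of the 2 ratios, a ranking added after the data had been seen, placed OASL, HERC5, IFI44, ISG15 and OAS1 among the first 12, and these 5 were also the members among the first 25. The other genes included DDX58, which encodes RIG-I (2.67 in Drug_Radiation and 2.56 in Drug), DDX60 (2.54 and 2.98), the antiviral factor ZC3HAV1 (2.38 and 2.48) and the DNA sensor AIM2 (2.08 and 1.64). They also included the chemokine CCL5 (2.86 and 2.96) and PMAIP1, the death protein NOXA (2.22 and 2.12). CCL5 had 216 CPM inside and 28.9 outside in Drug_Radiation and 229 and 28.6 in Drug, and PMAIP1 had 436 and 92.8 CPM in Drug_Radiation and 446 and 102 in Drug. Of the 25 genes, 24 were also higher inside in Radiation and 21 in Control, where they rest on 23 and 3 cells.

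Cells with at least 0.2% of UMIs from a list of S phase or of G2 and M phase genes, a limit set after the data had been seen since no cell reached 1%, made up 5.92% in Drug_Radiation, 12% in Drug, 13.3% in Radiation and 15.6% in Control among cells of at least 6000 UMIs. They made up 4.87% of the IFIT-rich cells in Drug_Radiation and 6.99% in Drug, but 21.7% in Radiation and 33.3% in Control, from 5 of 23 and 1 of 3 cells. STAT2 had 17.6 CPM in them and 29.8 in other cells in Drug_Radiation (-0.73), 13.8 and 28.2 in Drug (-0.98), and 8.60 and 23.6 in Radiation (-1.36). IFIT2 had 17.3 and 27.5 CPM in Drug_Radiation (-0.64) 14.6 and 30.3 in Drug (-1.0), and 9.46 and 21.6 in Radiation (-1.11). In Control IFIT2 had 64.7 CPM in them and 23.7 in other cells (1.41, 0.50 to 2.34), on 16 UMIs in 35 cells, the opposite direction. Of these 35 cells 1 was IFIT-rich, and the Control cell with most IFIT UMIs held 13 of IFIT2 by itself. The interval counts UMIs of 1 cell as independent, so this Control value can rest on 1 cell. OAS3 went the other way from STAT2, with 11 and 6.65 CPM in Drug_Radiation (0.65) and 12.8 and 6.61 in Drug (0.86), as did SAMHD1 in Drug (4.76 and 2.07 CPM). The share of such cells moved with the libraries, and its part in the library differences of STAT2, IFIT2 and OAS3 was not tested.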

How the data were processed

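The authors deposited 1 table per library of UMI counts, raw and not normalized, for every gene in every barcode. Per the labels' protocols the kit was PIPseq V T2 3′, while another label text names 10x Genomics. Build hg38 and Seurat 4.3.3 are listed per the submitters' processing notes, with no role. Aligner, counting program, annotation and strand: not given in the sources used here. Gene positions came from GENCODE 29 (GRCh38).

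Barcodes passed with 500 UMIs or more, 300 genes or more and a mitochondrial share under 20% (6990 of 7006 in Drug_Radiation, 3802 of 3806 in Drug, 2425 of 2428 in Radiation, 3183 of 3184 in Control). Counts were summed per library and scaled to the nuclear-encoded total (CPM), which weights deep cells more. A gene was measured in a comparison if it had at least 5 CPM in a compared library, and a fixed size of 2-fold in CPM plus 1 was counted. Between cells of 1 library the 5 CPM were required over all cells of at least 6000 UMIs. Intervals at 95% were exact Poisson (CPM), conditional binomial (ratios, without the added 1) and Clopper-Pearson (shares). The limit for a count of 0 was 3 counts, from 0.0212 CPM in Drug_Radiation to 0.335 CPM in Control. Members, pathway lists and settings were chosen with earlier results of these data known. The rule for names took all 32 members and, from each other list, every gene 2-fold higher or lower in a comparison and the 3 of highest mean CPM. IFNAR1 and genes named in the cell comparisons were added after their values were seen. No barcode was taken out as a doublet. Thinning used seed 0.

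In counts simulated for each comparison with 200 genes changed, every 3-fold and every 4-fold change passed 2-fold, no 1.5-fold change did, and 0 unchanged genes were counted. Counting intervals covered the simulated ratio for 95.6% of 10127 genes in Drug against Control and 95.1% of 9969 in Drug_Radiation against Radiation. For Radiation against Control and Drug_Radiation against Drug this was 95.6% of 9419 and 95.0% of 10083. The simulated counts had counting error alone, which the intervals assume, so this coverage was fixed by the design. It says nothing of genes spread unevenly over cells, such as ISG15 and OASL. Alternatives were all barcodes, a stricter cell filter (1000 UMIs, 500 genes, 10% mitochondrial), TMM scaling (edgeR 4.0.16), median-of-ratios scaling (DESeq2 1.42.0), equal weight per cell, thinning to 1000 UMIs, cells of 6500 to 15000 UMIs, filters at 20 CPM and 1 UMI, and 0.1 CPM added. Both packages gave scaling factors only. Python 3.11.15, numpy 2.4.6, scipy 1.17.1, pandas 2.3.3, matplotlib 3.10.9 and R 4.3.3 were used.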

Additional observations from a re-analysis of the deposited data

Results flagged for a closer look

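For 8 genes the ratio of 1 comparison lay above 0 and that of its counterpart below 0, with both counting intervals clear of 0. With 1 library per group these differences were not tested, and how many of all genes met this rule was not counted. For 7 of the 8 genes the comparisons were Drug_Radiation against Drug and Radiation against Control. The medians of all genes also had opposite signs there, -0.14 and 0.12. IRF9 had log2 ratios of -0.32 and 0.56 in these 2 comparisons, so the ratio without QTP exceeded that with QTP by 0.88. IRF1 had -0.18 and 0.68, a difference of 0.86, and IFI35 had -0.29 and 0.31, a difference of 0.60. IFI6 differed by 0.38, IFITM2 by 0.36 and IFITM3 by 0.16 in the same direction. HERC5 had 0.18 and -0.44, a difference of -0.62. TRIM22 had -0.36 in Drug_Radiation against Radiation and 0.28 in Drug against Control, a difference of 0.64, and its ratio in Drug against Control was -0.10 under TMM scaling. Under TMM scaling the ratios of IFI6, IFITM2, IFITM3 and IRF1 in Drug_Radiation against Drug were above 0. Among cells of 6500 to 15000 UMIs IRF9 had -0.02 and 0.50, IRF1 0.03 and 0.57, IFI35 0.07 and 0.24, and HERC5 -0.51 and -0.56. There TRIM22 had -0.67 and -0.71, so IRF1, IFI35, HERC5 and TRIM22 each had 1 sign in both comparisons.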

How the results depend on the processing

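No paired analysis was possible because each group had 1 library. Of the summary values (counts and medians of members, shares of IFIT-rich cells, members higher in them), 143 of the recomputed values stayed near the main one and 37 moved. For the shares of IFIT-rich cells the main value was that at 1000 UMIs. The 4 shares at 6000 UMIs are therefore among those that moved, and distance from them was not counted. All barcodes, the stricter cell filter and the 20 CPM filter moved none. Under TMM scaling the members' median was 0.0207 in Drug_Radiation against Drug, 0.24 in Drug against Control and 0.14 in Drug_Radiation against Radiation, and under median-of-ratios scaling it was -0.0094, 0.22 and 0.0677, and 0.22 in Drug_Radiation against Control. Both scalings left 0 members 2-fold higher in Drug against Control. That count was 2 with equal weight per cell, 5 in cells thinned to 1000 UMIs, 3 in cells of 6500 to 15000 UMIs, 2 with a filter at 1 UMI and 3 with 0.1 CPM added. Thinning also gave 2 higher in Radiation against Control, 3 higher in Drug_Radiation against Radiation, 1 higher in Drug_Radiation against Control and 1 lower in Drug_Radiation against Drug. In Drug_Radiation against Control, cells of 6500 to 15000 UMIs gave 1 higher and 0.1 CPM added gave 1. In that depth range the medians were 0.28 in Drug against Control, 0.0802 in Drug_Radiation against Radiation and 0.16 in Drug_Radiation against Control. The cause was not tested.

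The share of cells with at least 3 IFIT UMIs follows the depth at which it is read. At 6000 UMIs it was 3.23% in Drug_Radiation, 3.76% in Drug, 2.36% in Radiation and 1.33% in Control, without thinning 15.1%, 20.8%, 2.60% and 0.943%, and among cells of 6500 to 15000 UMIs without thinning 7.30%, 8.80%, 3.90% and 1.16%. The count of other members 2-fold higher in such cells in Drug was 4 when cells of every depth were used without thinning. It was 14 with a filter at 5 CPM inside or outside, which genes low over all cells can pass through their level inside alone. Of values of single genes, 908 stayed near the reported one, 331 moved and 0 called values changed sign. Control and Radiation limit the precision: 9 members had under 5 CPM in every library, and 5 were under 1 CPM in Control.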
